A study of Mus musculus with 12 samples.

Results

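Retina of B6 mice kept as an explant for 3 days was compared with intact B6 retina, array by array, across every non-control probe set of the Affymetrix Mouse Genome 430 2.0 array, 45037 in all. The comparison rests on 4 of the 12 arrays of the series, 2 of explants and 2 of intact retina, and all 12 entered the fit so that the 6 groups shared 1 estimate of the spread. The explants were neural retina of 10-week-old C57BL/6NCrSlc males, freed of lens, iris, ciliary body and pigmented epithelium, and cultured on a membrane with the ganglion cell side up. According to the methods, control medium held DMSO as vehicle and the nucleoside EdU, so vehicle and label belong to the explants only and cannot be told apart from culture. Intact retina came from mice of the same strain, age and sex and was not cultured. The other 8 arrays are the same pair of groups from 129X1/SvJJmsSlc mice (129) and the explants of both strains given CHIR99021, an inhibitor of the kinase GSK3. The methods state that 2 retinas were used for each condition. Whether both came from 1 animal is not stated, so the errors may reflect the spread within an animal only.

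Removing the eye cuts the axons of the ganglion cells and ends the blood flow of the retina, and lifting off the pigmented epithelium takes away the cells that recycle the chromophore of the visual pigments. Müller glia, which span the whole retina and feed, buffer and support its neurons, answer such injury with reactive gliosis, in which intermediate filaments and acute-phase genes come on and enzymes of their normal work recede. Microglia, the resident macrophages, enlarge and take up debris, and neurons switch on a program of transcription factors known from cut axons. In fish and birds reactive Müller glia can re-enter the cell cycle and yield neurons, and the mouse explant is used to ask how far they go in a mammal.

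All values are intensities summarized with RMA, a method that subtracts background, forces 1 distribution on all arrays and sums the probes of a set into 1 value. They are given on the linear scale, where the median probe set stood between 68.7 and 70.6 on the 12 arrays, and the level of a probe set cannot be set against that of another. Changes are explant minus intact on the log2 scale with the standard error (SE) of the limma fit, and a probe set was called at a Benjamini-Hochberg adjusted p under 0.05 over all 45037. For gene lists, a gene was represented by its brightest probe set on average over the 12 arrays. Of the called genes named below, 21 had a dimmer probe set that differed by more than 1 on the log2 scale or in sign and was not called: Anxa2, Calb1, Ccnd3, Cd44, Cd8a, Col8a1, Cryab, Ddit3, Ednrb, Fdps, Fgf1, Gja1, H2-D1, Inhbb, Jag1, Lif, Lyz1, Osmr, Rrm2, Sox9 and Tap1. Of these, Cd8a also had a dimmer probe set that was called in the opposite direction, at 0.24. Among all 2552 genes with 2 or more called probe sets, 267 (10.5%) had calls in both directions. Further dimmer probe sets of named genes were called in the same direction but with another size of change. Among others, the change was smaller for Steap4 (0.70), Rtp4 (1.07), Cebpd (0.54), Psmb8 (0.86) and Nxnl1 (-0.63), and larger for Mbd1 (2.96). The size of a change below is therefore that of 1 probe set. The correlation of log2 values was 0.9974 between the explant arrays and 0.9965 between the intact arrays, against 0.974 to 0.976 between the groups, and 10 probe sets differed by more than 2-fold between the explant arrays and 23 between the intact arrays.

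The explants differed from intact retina at 14188 probe sets, of which 6714 were higher and 7474 lower, or 14.9% and 16.6% of those tested. At least 2-fold, 1206 probe sets (2.68%) were higher and 784 (1.74%) lower. With 1 probe set a gene, 3512 of 18193 genes (19.3%) rose and 3077 (16.9%) fell, and the median gene changed by -0.00 on the log2 scale. The counts of each list below were read against these shares. The share called grew with level. When probe sets were ranked by level and cut into 4 equal bins, 5.20% of the dimmest bin were higher and 6.08% lower, and 25.5% of the brightest were higher and 24.8% lower. When the arrays were centred on the median level of 11 housekeeping genes, every B6 change fell by 0.42 and the calls became 2126 higher and 34332 lower. The median change of the same 11 genes was -0.01 without such centring. Centred instead on that median change, the arrays gave 6380 higher and 6436 lower, and after cyclic loess 7179 higher and 6937 lower. Which direction had more calls therefore depended on the scaling.

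**Figure D1:**
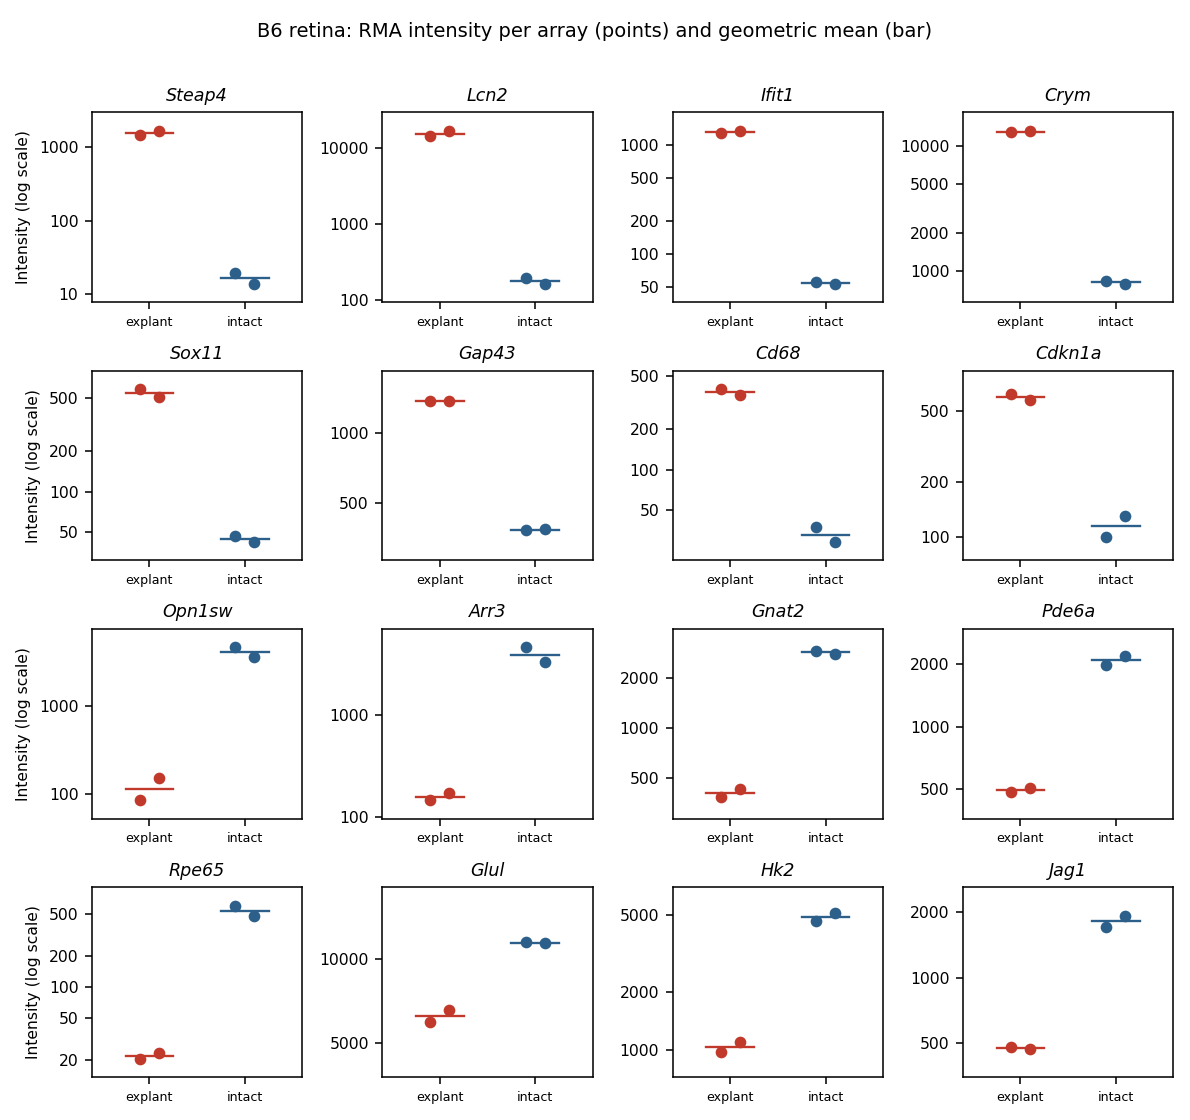
Intensity of 16 genes on the 4 arrays (vertical axis, log scale), explant arrays at the left of each panel and intact arrays at the right, with each point an array and each bar the geometric mean of its group. Steap4, Lcn2, Ifit1, Crym, Sox11, Gap43, Cd68 and Cdkn1a were higher on both explant arrays, and Opn1sw, Arr3, Gnat2, Pde6a, Rpe65, Glul, Hk2 and Jag1 were lower.

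The largest rises were in genes of inflammation and injury. Steap4, a metalloreductase of inflamed tissue, stood at 1481 and 1682 in the explants, against 19.5 and 13.8 in intact retina (96.2-fold higher, log2 change 6.59, SE 0.18, adjusted p = 2.67e-09). Lcn2, a lipocalin of reactive glia that binds siderophores, had 14296 and 16856 in the explants, against 192 and 163 in intact retina (87.6-fold higher, log2 change 6.45, SE 0.16, adjusted p = 1.98e-09). Timp1, an inhibitor of matrix metalloproteinases, had 1919.6 and 2265 in the explants, against 32.3 and 21.4 in intact retina (79.3-fold higher, log2 change 6.31, SE 0.22, adjusted p = 9.92e-09). In all 3, at the probe sets given, the lower explant array lay far above the higher intact one. A dimmer Steap4 probe set rose by much less, 0.70, so the size of the Steap4 rise depended on the probe set. The remainder of the 15 largest rises, as log2 changes, were Ccl6 at 5.76, Sprr1a at 5.65, Arg1 at 5.45, Nupr1 at 5.26, Lgals3 at 5.03, S100a6 at 5.02, Lyz1 at 4.80, Socs3 at 4.70, Rtp4 at 4.69, Egr2 at 4.67, Igfbp3 at 4.63 and Ifit1 at 4.61. They include macrophage products (Ccl6, Arg1, Lgals3, Lyz1), Socs3, which inhibits STAT3 signalling by feedback, and the interferon-induced Rtp4 and Ifit1.

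The largest falls were in genes of the pigmented epithelium and of cones. Ttr, the carrier of thyroxine and retinol that the pigmented epithelium makes, stood at 101 and 90.6 in the explants, against 9057 and 7422 in intact retina (85.5-fold lower, log2 change -6.42, SE 0.39, adjusted p = 5.44e-07). Rgr, an opsin of the pigmented epithelium and Müller glia that regenerates chromophore, had 27.7 and 29.2 in the explants, against 1134 and 994 in intact retina (log2 change -5.22, SE 0.34, adjusted p = 7.73e-07). Opn1sw, the short-wavelength cone opsin, had 83.7 and 149 in the explants, against 4669 and 3656 in intact retina (36.99-fold lower, log2 change -5.21, SE 0.33, adjusted p = 6.16e-07). The explant arrays were apart for Opn1sw, yet both lay far below the intact arrays. The others of the 15 were Glb1l3 at -4.95, Rpe65 at -4.63, Arr3 at -4.59, Cltrn at -4.59, 3010001F23Rik at -4.22, Sh2d1a at -4.10, Lrat at -4.00, Opn1mw at -3.86, Dct at -3.55, Fam107a at -3.42, Slc6a20a at -3.36 and Gm11342 at -3.27.

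**Figure D2:**
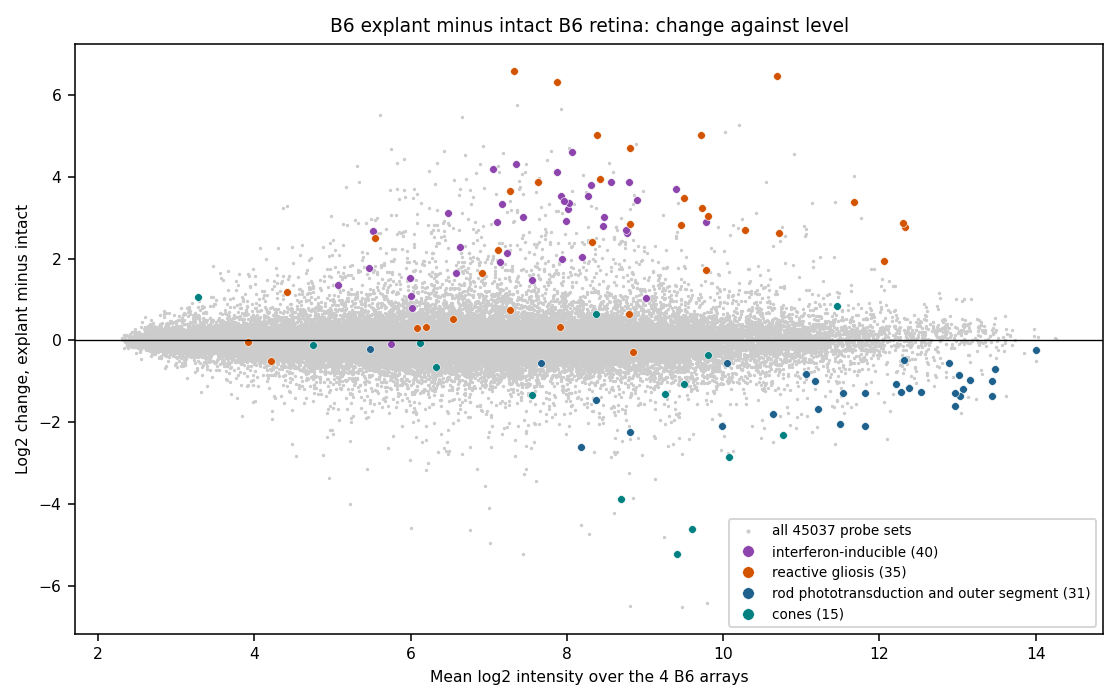
Log2 change of B6 explants minus intact B6 retina (vertical axis) against the mean log2 intensity over the 4 arrays compared (horizontal axis), 1 grey point per probe set, with the members of 4 lists coloured. Of the 31 rod genes 30 were called lower, mostly at high levels, and of the 40 interferon-inducible genes 39 were called higher.

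Rod transcripts fell nearly as a block. Of 31 measured genes of rod phototransduction and the outer segment 30 were lower, and the median change was -1.25. The exception was Gucy2e, a guanylate cyclase of photoreceptors, with 47.02 and 36.7 in the explants, against 43.03 and 53.02 in intact retina (adjusted p = 0.328). Gnat1, the alpha subunit of rod transducin, had 7844 and 7922 in the explants, against 15586 and 15860.0 in intact retina (1.99-fold lower, adjusted p = 3.71e-05). Pde6a, the alpha subunit of the rod phosphodiesterase, had 484 and 505 in the explants, against 1993 and 2191 in intact retina (4.23-fold lower, log2 change -2.08, SE 0.10, adjusted p = 7.55e-08). Its partner subunit Pde6b changed by less, -1.18 (SE 0.07). Fscn2, a fascin of the outer segment, changed by -2.23 (SE 0.13) and Reep6, which shapes rod membranes, by -2.09 (SE 0.11). Rgs9bp, the anchor of the complex that turns transducin off, changed by -2.04 (SE 0.11), and Rdh12, which detoxifies retinal, by -1.79 (SE 0.11). Prph2, the peripherin of disc rims, was uneven between replicates, with 160.0 and 88.1 in the explants, against 419 and 1224 in intact retina (log2 change -2.59, SE 0.65, adjusted p = 0.0109). Its call was lost without intact replicate 2 and without explant replicate 2. With all arrays, it was also lost in a limma fit with a trended and robust eBayes step (adjusted p = 0.062). In bulk RNA fewer rods and less RNA per rod cannot be told apart, and the same holds for every cell type below.

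Opsins and arrestin of cones fell by more than any of these rod genes. Arr3, the cone arrestin, had 146 and 171 in the explants, against 4506 and 3239 in intact retina (24.2-fold lower, log2 change -4.59, SE 0.23, adjusted p = 1.54e-07). Opn1mw, the middle-wavelength opsin, had 98.1 and 119.7 in the explants, against 1593 and 1561 in intact retina (14.6-fold lower, log2 change -3.86, SE 0.24, adjusted p = 5.26e-07). Gnat2, the alpha subunit of cone transducin, was at 380.4 and 426 in the explants, against 2950.0 and 2801 in intact retina (7.14-fold lower). In these 3 genes the groups were much further apart than the arrays of a group, although the intact arrays of Arr3 differed. Of 15 measured cone genes 10 fell and 3 rose, with a median of -1.06. Pde6h, the inhibitory subunit of the cone phosphodiesterase, had 621 and 983 in the explants, against 3943 and 3808 in intact retina (log2 change -2.31, SE 0.37, adjusted p = 7.04e-04), and its explant arrays were apart. The 3 that rose were Gnb3 at 0.84, the transducin beta subunit that cones share with bipolar cells, Tbx2 at 0.63 and Clca3a2 at 1.05.

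Of 12 transcription factors of photoreceptors 9 were lower, with a median of -0.86. Nrl, the factor that sets rod fate, had 4967 and 5522 in the explants, against 13514 and 13858 in intact retina (2.61-fold lower, log2 change -1.39, SE 0.11, adjusted p = 4.98e-06). Crx, which activates rod and cone genes, was 1.83-fold lower (log2 change -0.87, SE 0.09, adjusted p = 2.06e-05). Esrrb, a nuclear receptor of rods, and Mef2c changed by more, -2.52 (SE 0.13) and -2.41 (SE 0.11). Neurod1, a proneural factor kept on in photoreceptors, had 8318 and 9154 in the explants, against 8635 and 8833 in intact retina and was not called. Another probe set of Neurod1 rose by 0.26 (adjusted p = 0.041). Nxnl1, which encodes the rod-derived cone viability factor, had 255 and 287 in the explants, against 1877 and 1839 in intact retina (6.86-fold lower, log2 change -2.78, SE 0.08, adjusted p = 4.02e-09).

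To show the sequence upstream of genes that fell together, the 250 bases before the start of 3 of them are given from the RefSeq promoter table (GRCm38.p6), 5′ to 3′, with each match to TAATCC, the core bound by CRX and related homeodomain factors, in capitals on either strand. They are chr3:122044210-122044459 (+ strand) for Abca4, chr17:47400607-47400856 (- strand) for Guca1a and chr3:108092816-108093065 (+ strand) for Gnat2.
Abca4: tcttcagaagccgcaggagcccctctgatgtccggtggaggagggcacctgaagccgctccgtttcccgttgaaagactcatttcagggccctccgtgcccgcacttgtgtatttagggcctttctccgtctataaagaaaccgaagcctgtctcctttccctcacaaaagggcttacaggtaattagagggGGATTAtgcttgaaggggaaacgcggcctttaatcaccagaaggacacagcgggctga
Guca1a: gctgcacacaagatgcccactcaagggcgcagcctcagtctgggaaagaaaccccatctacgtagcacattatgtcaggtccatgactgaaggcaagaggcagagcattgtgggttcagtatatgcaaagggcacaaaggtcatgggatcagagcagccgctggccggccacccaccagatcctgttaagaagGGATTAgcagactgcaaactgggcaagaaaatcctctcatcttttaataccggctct
Gnat2: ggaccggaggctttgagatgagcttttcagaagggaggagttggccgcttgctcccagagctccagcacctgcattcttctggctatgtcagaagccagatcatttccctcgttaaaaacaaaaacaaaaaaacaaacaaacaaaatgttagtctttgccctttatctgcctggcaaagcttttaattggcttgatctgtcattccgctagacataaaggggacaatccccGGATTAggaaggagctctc
Abca4, the lipid transporter of disc rims, had 1362 and 1310.1 in the explants, against 4259 and 4270.3 in intact retina (3.19-fold lower). Guca1a, the calcium sensor of guanylate cyclase, had 4543 and 4681 in the explants, against 13868 and 13970.3 in intact retina (3.02-fold lower). Of 22 rod genes with a promoter in the table, 9 (40.9%) held the core, and of 10 cone genes 2 did, against 6.38% of 27025 promoters of the same length. Among genes called at least 2-fold lower it stood in 31 of 296 (10.5%), and among those at least 2-fold higher in 22 of 550. A match of these letters is a description and not a binding site.

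Genes of the visual cycle fell together with markers of the pigmented epithelium. Of 17 measured genes of retinoid handling 12 were lower. Rpe65, the isomerase of the pigmented epithelium, had 20.4 and 23.1 in the explants, against 603 and 484 in intact retina (24.8-fold lower, log2 change -4.63, SE 0.36, adjusted p = 3.46e-06). Rdh5, a retinol dehydrogenase of the same cells, had 60 and 60.1 in the explants, against 555 and 501 in intact retina (8.77-fold lower). Lrat, which loads retinol onto lipid, had 9.41 and 9.38 in the explants, against 194 and 116 in intact retina (log2 change -4.00, SE 0.29, adjusted p = 2.20e-06). The intact tissue is labelled retina, and these genes of the epithelium stood well above their explant levels on both of its arrays. Of 24 measured markers of pigmented epithelium and melanocytes 20 were lower and 1 higher, and their summed intensity was 7732 and 8121 in the explants, against 26645 and 23380 in intact retina. What part epithelium attached to the intact retina had in these falls was not tested. Rbp3, the retinoid carrier that photoreceptors secrete, changed by -0.74 (SE 0.12). Among enzymes that make the very long chain fatty acids of outer segments, Elovl2 had 500.0 and 451 in the explants, against 1056 and 933 in intact retina (2.09-fold lower).

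Genes of inner retinal neurons went both ways. Of 21 bipolar cell genes 6 rose and 4 fell, with a median of -0.02, and without intact replicate 1 or without explant replicate 2 the counts were 3 and 2. Gng13, the G protein gamma subunit of ON bipolar cells, changed by 0.47 (SE 0.10), and Prkca, the kinase that marks rod bipolar cells, by -0.50 (SE 0.09). Of 25 amacrine cell genes 4 rose and 7 fell, and the 4 were 2 without intact replicate 1 or either explant array. Gad2, which makes GABA, had 493 and 511 in the explants, against 511 and 534 in intact retina and was not called. Slc6a9, the glycine transporter, had 665 and 752 in the explants, against 729 and 754 in intact retina and was not called. Calb2, the calretinin of amacrine and ganglion cells, had 1396 and 1334 in the explants, against 3126 and 3195 in intact retina (2.32-fold lower, log2 change -1.21, SE 0.07, adjusted p = 2.59e-07). Of 12 horizontal cell genes 2 rose and 5 fell, among them Calb1, the calbindin, at -0.53 (SE 0.07).

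Ganglion cell genes were lower in 12 of 24 and higher in 3, with a median of -0.32. Pou4f1, a POU factor of ganglion cells, had 95.2 and 105 in the explants, against 179.9 and 181 in intact retina (log2 change -0.85, SE 0.14, adjusted p = 6.65e-04). Rbpms, an RNA-binding marker of ganglion cells, had 105 and 101 in the explants, against 257 and 235 in intact retina (2.38-fold lower). Nefh, the heavy neurofilament, had 441 and 418 in the explants, against 1090.2 and 1128 in intact retina (2.58-fold lower). The genes that rose were Slc17a6 at 0.71 (SE 0.10), the vesicular glutamate transporter of ganglion cells, and the growth cone genes Stmn2 at 1.13 (SE 0.09) and Gap43 at 1.82 (SE 0.07).

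Genes of the ribbon synapse, the release site of photoreceptors and bipolar cells, were lower in 19 of 27 and higher in 0 (limma; 2 higher at an unadjusted p under 0.05), with a median of -0.35. Cplx4, a complexin of photoreceptors, had 1854 and 2043 in the explants, against 4668 and 4053 in intact retina (2.24-fold lower). Cplx3, its close relative at ribbon synapses, changed by -0.11 (SE 0.08) with an adjusted p of 0.366. Cacna1f, the calcium channel of the rod terminal, changed by -0.90 (SE 0.07), and Egflam, the matrix protein pikachurin that links photoreceptor and bipolar dendrite, by -1.05 (SE 0.09).

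Genes of resting Müller glia went both ways. Of 34 measured 17 rose and 9 fell, with a median of 0.37 that became -0.049 when the arrays were centred on the median level of housekeeping genes. Glul, the glutamine synthetase that clears glutamate, had 5943 and 6543 in the explants, against 11506 and 11419.6 in intact retina (1.84-fold lower, log2 change -0.88, SE 0.07, adjusted p = 4.86e-06). Slc1a3, the glutamate transporter of the same cells, had 2500.4 and 2459 in the explants, against 783 and 849.5 in intact retina (3.04-fold higher, log2 change 1.60, SE 0.08, adjusted p = 1.87e-07). Dimmer Slc1a3 probe sets rose by less, at 0.49, 0.34 and 0.54. Thus the enzyme was lower and the transporter higher, by an amount that depended on the probe set. Aqp1, a water channel, changed by -2.10 (SE 0.11) and Abca8a, a lipid transporter, by -1.40 (SE 0.12), while Kcnj10, the potassium channel, rose by 1.07 (SE 0.11). Crym, crystallin mu, which binds thyroid hormone, had 12944 and 13288 in the explants, against 835 and 789.7 in intact retina (16.2-fold higher, log2 change 4.01, SE 0.11, adjusted p = 3.62e-09). Sox9, a nuclear marker of Müller glia, had 316 and 289 in the explants, against 123 and 139.6 in intact retina (2.30-fold higher).

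Genes of reactive gliosis rose in 31 of 35 and fell in 1, with a median of 2.68, against 19.3% higher and 16.9% lower among all genes. Gfap, the intermediate filament of reactive glia, had 367 and 246 in the explants, against 65.4 and 64.3 in intact retina (4.64-fold higher, log2 change 2.21, SE 0.18, adjusted p = 3.97e-06). Its 2 other probe sets rose by 3.54 and 4.07, so the size of the Gfap rise depended on the probe set. Vim, the filament vimentin, had 8409 and 8356 in the explants, against 2206 and 2175 in intact retina (3.83-fold higher, log2 change 1.94, SE 0.10, adjusted p = 1.47e-07). Acute-phase genes were among them. Cp, the copper carrier ceruloplasmin, had 10418 and 10616 in the explants, against 1092 and 949 in intact retina (10.3-fold higher), but its 2 dimmer probe sets rose by less, 2.32-fold and 2.57-fold. Serpina3n, a protease inhibitor of reactive astrocytes, had 1229 and 1481 in the explants, against 79 and 97.98 in intact retina (15.3-fold higher). A2m, a broad protease trap, had 1820.4 and 1918 in the explants, against 276 and 255 in intact retina (7.05-fold higher). In each the explant arrays lay above the intact arrays by several fold. Cd44, the hyaluronan receptor of Müller cell tips, had 2359 and 2498 in the explants, against 236 and 200.4 in intact retina (11.2-fold higher, log2 change 3.48, SE 0.13, adjusted p = 1.99e-08). Of 9 astrocyte genes 3 rose and 5 fell. Among those that fell was Gja1, the gap junction protein connexin 43, with 67 and 72.8 in the explants, against 349 and 271 in intact retina (log2 change -2.14, SE 0.41, adjusted p = 0.00234), although another of its probe sets changed by -0.11 and was not called.

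More progenitor genes rose than fell, but which direction had more calls depended on the scaling. Of 44 measured progenitor and proneural genes 18 rose (40.9%) and 5 fell (11.4%), against 19.3% and 16.9% of all genes, and 7 and 4 of them at least 2-fold. Their median was 0.15. Under centring on the median level of housekeeping genes 10 were higher and 22 lower, with a median of -0.27. Pax6, which defines the eye field, had 2133 and 2053 in the explants, against 2061 and 1962 in intact retina and was not called, while 2 of its other probe sets were lower, at -0.65 and -0.38. Rax, another eye field factor, had 699 and 641 in the explants, against 744 and 785 in intact retina and was not called. Sox2, kept in Müller glia and some amacrine cells, had 1912 and 1859 in the explants, against 793 and 882 in intact retina (2.25-fold higher, log2 change 1.17, SE 0.08, adjusted p = 1.34e-06). Of these 3, Sox2 was called. Sox11, expressed in newborn and in injured neurons, had 583 and 512 in the explants, against 46.8 and 41.9 in intact retina (12.3-fold higher, log2 change 3.62, SE 0.09, adjusted p = 1.98e-09). Neurog2, a proneural factor, had 169 and 161 in the explants, against 59.5 and 68.8 in intact retina (log2 change 1.36, SE 0.09, adjusted p = 6.84e-07). Jag1, a Notch ligand, had 480.3 and 474 in the explants, against 1711 and 1919 in intact retina (3.80-fold lower, log2 change -1.92, SE 0.16, adjusted p = 7.19e-06). Jag1 and Insm1, a factor of newborn neurons that changed by -1.60 (SE 0.10), were the largest falls of the list.

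**Figure D3:**
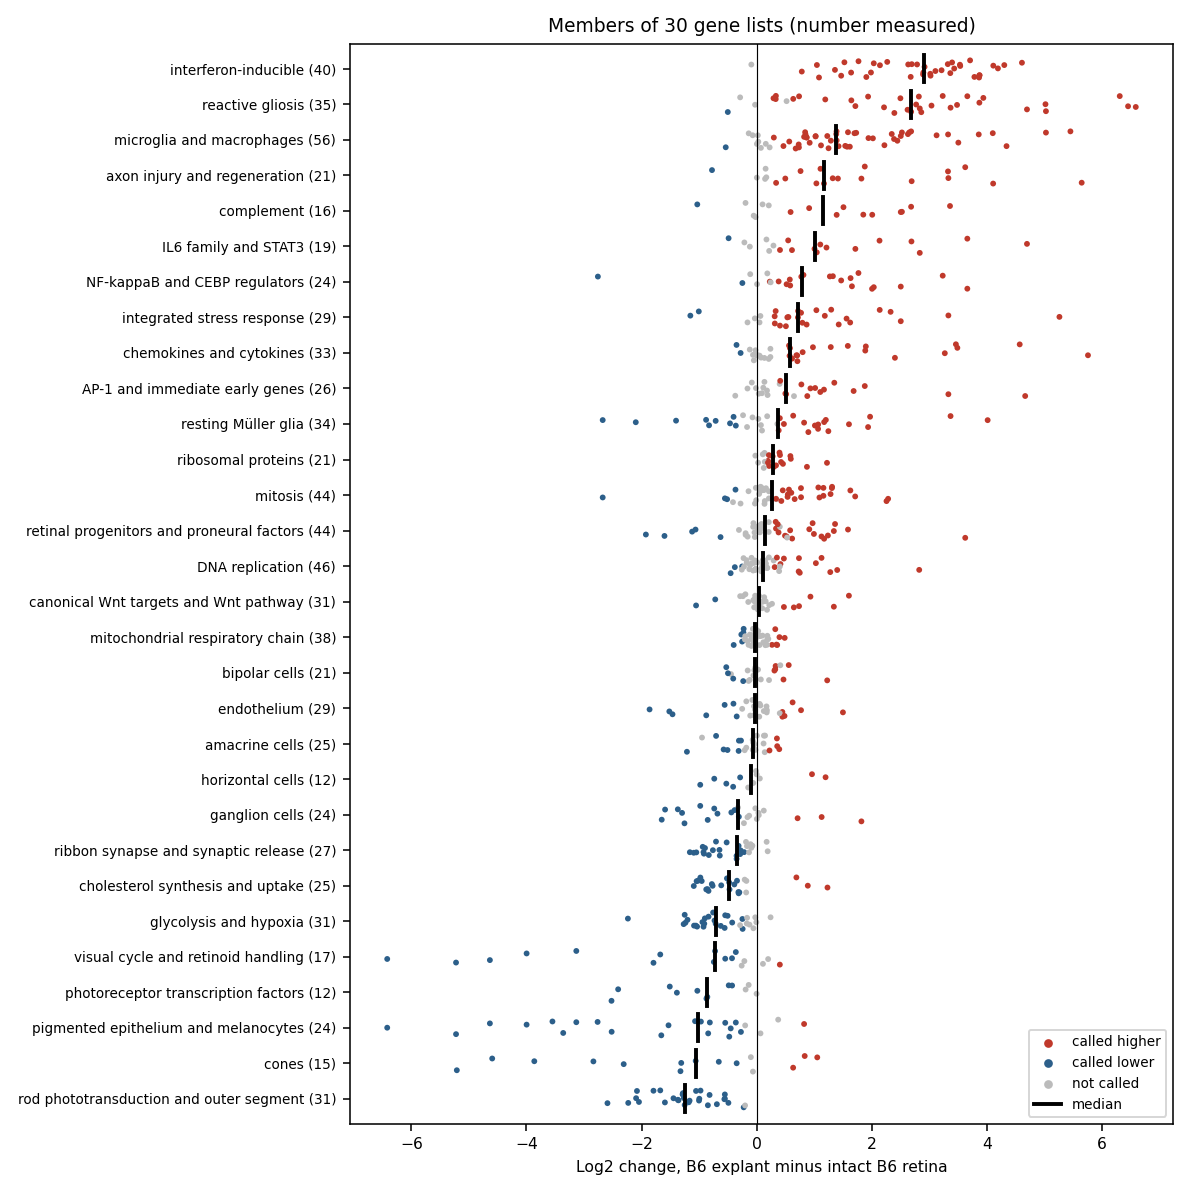
Log2 change of B6 explants minus intact B6 retina (horizontal axis) of every measured member of 30 gene lists, 1 row per list ordered by median, with grey points for members that were not called, coloured points for called ones and a black bar for the median. The median is 2.91 for interferon-inducible genes in the top row and -1.25 for rod genes in the bottom row.

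Microglia and macrophage genes rose in 47 of 56 and fell in 1, Siglech at -0.54, with a median of 1.39. Their summed intensity was 21845 and 20376 in the explants, against 8090 and 7544 in intact retina. Cd68, a lysosomal membrane protein of phagocytes, had 397 and 357 in the explants, against 37.7 and 29.2 in intact retina (11.3-fold higher, log2 change 3.50, SE 0.15, adjusted p = 4.30e-08). Clec7a, a pattern receptor of activated microglia, had 812 and 662 in the explants, against 47.1 and 38.7 in intact retina (17.2-fold higher). Lyz2, the macrophage lysozyme, had 1645 and 1705 in the explants, against 106 and 64.6 in intact retina (20.3-fold higher), and its probe set may also take up transcripts of the near-identical Lyz1. These products of activated and phagocytic cells were all more than 10-fold higher. Lgals3, the lectin galectin-3, had 2102 and 1724 in the explants, against 61.8 and 55.2 in intact retina (32.6-fold higher, log2 change 5.03, SE 0.12, adjusted p = 1.32e-09). Arg1, the arginase of alternatively activated macrophages, had 854 and 525 in the explants, against 14.1 and 16.6 in intact retina. Markers of the cell type moved less, with Aif1, the protein IBA1, at 1.70 (SE 0.11) and Cx3cr1, the fractalkine receptor, at 1.02 (SE 0.11). P2ry12, a receptor of resting microglia, had 18.6 and 18.9 in the explants, against 24.7 and 17.3 in intact retina and was not called. Tmem119, another marker of resting microglia, had 66.4 and 54.7 in the explants, against 58.7 and 59.5 in intact retina and was not called.

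Of 16 genes of neutrophils and T cells 0 were higher by limma (2 at an unadjusted p under 0.05) and 2 were lower, Mpo at -0.32 and Cd8a at -0.31, which were 0 without intact replicate 2. Another probe set of Cd8a was called higher, at 0.24. The summed intensity of the 16 genes was 542 and 552 in the explants, against 550 and 594 in intact retina. S100a8, an abundant product of neutrophils, had 16.8 on both arrays in the explants, against 14.4 and 14 in intact retina. Of 6 erythrocyte genes 1 was lower, Hbb-b2, a beta globin, with 19.1 and 19.6 in the explants, against 37.8 and 40.97 in intact retina. Of 18 lens genes Cryab was called, and it encodes the alpha-B crystallin that glia also make as a small heat shock protein, with 3910.0 and 3982 in the explants, against 685 and 773 in intact retina (5.42-fold higher, log2 change 2.44, SE 0.56, adjusted p = 0.00639). Its wide SE went with intact 129 arrays that were apart. The size of the B6 change rests on the B6 arrays alone, so leaving out a 129 array could alter its SE but not its size. The intact 129 arrays were apart in lens genes beyond Cryab. The summed intensity of the 18 lens genes was 2470 and 37057 on these arrays, against 1292 and 1473 in intact B6 retina. Both intact 129 arrays entered the shared spread and every strain difference.

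Of 29 endothelial genes 6 rose (20.7%) and 7 fell (24.1%), against 19.3% and 16.9% of all genes. Of 14 genes of pericytes and smooth muscle 6 fell, 2 to 4 without any 1 of the 4 arrays compared, and Mcam rose (0.85). Slco1a4, a transporter of the blood-retina barrier, had 66.8 and 70.3 in the explants, against 299 and 207 in intact retina (3.63-fold lower). Abcb1a, the efflux pump of the barrier, had 51.7 and 48.2 in the explants, against 144 and 131 in intact retina (2.75-fold lower). Kdr, the receptor of VEGF, had 2709 and 2514 in the explants, against 915 and 931 in intact retina (2.83-fold higher). Pecam1 and Cdh5, general markers of endothelium, changed by 0.17 (SE 0.10) and 0.17 (SE 0.12) and were not called.

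Interferon-inducible genes rose in 39 of 40, with a median of 2.91, and the count was the same without any 1 of the 12 arrays. The 250 bases upstream of 3 of them are shown with matches to GAAANNGAA, the repeat of the interferon response element, in capitals on either strand, from chr19:34640639-34640888 (+ strand) for Ifit1, chr12:26456453-26456702 (- strand) for Rsad2 and chr3:142559794-142560043 (+ strand) for Gbp3.
Ifit1: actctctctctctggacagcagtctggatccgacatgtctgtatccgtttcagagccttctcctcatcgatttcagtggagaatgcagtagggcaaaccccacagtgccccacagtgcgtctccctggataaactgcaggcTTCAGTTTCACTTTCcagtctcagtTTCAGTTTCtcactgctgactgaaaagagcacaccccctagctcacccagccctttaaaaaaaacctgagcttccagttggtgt
Rsad2: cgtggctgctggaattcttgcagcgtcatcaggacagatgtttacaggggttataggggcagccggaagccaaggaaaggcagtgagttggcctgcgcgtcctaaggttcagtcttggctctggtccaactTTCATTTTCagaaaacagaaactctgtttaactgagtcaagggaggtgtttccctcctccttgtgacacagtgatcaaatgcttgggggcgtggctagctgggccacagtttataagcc
Gbp3: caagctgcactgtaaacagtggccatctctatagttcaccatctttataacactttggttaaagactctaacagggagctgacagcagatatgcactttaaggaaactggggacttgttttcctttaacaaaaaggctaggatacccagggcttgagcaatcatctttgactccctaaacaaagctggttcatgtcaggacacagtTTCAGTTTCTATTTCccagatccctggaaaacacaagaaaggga
The letters stood in 17 of 30 interferon-inducible genes with a promoter in the table (56.7%), against 7.16% of all 27025 promoters. Ifit1 holds 3 matches, Gbp3 holds 2 and Rsad2 holds 1, and matches that overlap form 1 run of capitals. Among genes called at least 2-fold higher the share was 12.7%, and among those at least 2-fold lower 7.43%.

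Ifit1, which binds foreign RNA, had 1293 and 1348 in the explants, against 54.98 and 53.2 in intact retina (24.4-fold higher, log2 change 4.61, SE 0.11, adjusted p = 1.32e-09). Gbp3, a GTPase that acts against vacuolar pathogens, had 980.1 and 969.5 in the explants, against 62.5 and 50.8 in intact retina (17.3-fold higher, log2 change 4.11, SE 0.10, adjusted p = 1.98e-09). Rsad2, the antiviral enzyme viperin, had 1370.4 and 1538 in the explants, against 111 and 88.5 in intact retina (14.7-fold higher). In these 3 genes both explant arrays were more than 10-fold above both intact arrays. Iigp1, another GTPase, had 741 and 714 in the explants, against 30.5 and 44.6 in intact retina (19.7-fold higher). Usp18, the brake on interferon signalling, had 515 and 630.4 in the explants, against 38.6 and 25.1 in intact retina (18.3-fold higher). Irf1, a transcription factor that interferon induces early, rose by 2.04 (SE 0.08). The list member that was not called was Oas2, at -0.09 (adjusted p = 0.623).

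Of 20 genes of antigen presentation 11 rose and 2 fell. H2-K1, a heavy chain of class I, had 4187 and 4400.3 in the explants, against 835 and 654 in intact retina (5.81-fold higher). H2-D1, another class I heavy chain, had 5225 and 5279 in the explants, against 1062 and 717 in intact retina (6.02-fold higher). The class I genes are near-identical and their probe sets disagreed, with 3 other probe sets of H2-D1 not called, so the gene behind these rises is uncertain. Tap1, which pumps peptides into the endoplasmic reticulum, had 816 and 774 in the explants, against 48.7 and 33.1 in intact retina (19.8-fold higher, log2 change 4.31, SE 0.15, adjusted p = 1.25e-08), while its 3 dimmer probe sets, at -0.14, 0.04 and -0.05, were not called. Psmb8, a subunit of the immunoproteasome, had 984 and 1092 in the explants, against 101 and 79.8 in intact retina (11.5-fold higher). Nlrc5, the transactivator of class I genes, had 499.6 and 496 in the explants, against 18.9 and 24.8 in intact retina (22.97-fold higher). The 2 that fell were H2-Ab1 at -0.41 (SE 0.12) and Cd74 at -0.27 (SE 0.08), both of class II. The call of Cd74 was lost without any 1 of the 4 arrays compared, and that of H2-Ab1 without intact replicate 1 or explant replicate 2.

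Genes of the IL6 family and STAT3 rose in 13 of 19. Osmr, the receptor of oncostatin M, had 1207 and 1190.5 in the explants, against 184 and 154 in intact retina (7.13-fold higher, log2 change 2.83, SE 0.09, adjusted p = 7.48e-09). Socs3 had 2328 and 2228 in the explants, against 87.7 and 87.96 in intact retina (25.9-fold higher, log2 change 4.70, SE 0.07, adjusted p = 5.66e-11). Lif, a cytokine of stressed Müller glia, had 156 and 172 in the explants, against 38.1 and 36.5 in intact retina (4.39-fold higher). Il6 itself had 15.2 and 20.3 in the explants, against 8.76 and 8.27 in intact retina (log2 change 1.04, SE 0.16, adjusted p = 5.78e-04). Of 33 chemokines and cytokines 19 rose and 2 fell. Ccl12, which draws monocytes, had 645 and 773 in the explants, against 36.6 and 24.1 in intact retina (23.8-fold higher). Ccl2, another monocyte chemokine, had 585 and 686 in the explants, against 80.8 and 53.4 in intact retina (9.64-fold higher). Cxcl10, the chemokine that interferon induces, had 148 and 247 in the explants, against 15.2 and 19.8 in intact retina (log2 change 3.46, SE 0.25, adjusted p = 2.06e-06). The probe sets of Cxcl1, a neutrophil chemokine, disagreed, with a change of 0.24 that was not called at the brightest and of 1.72 at another (adjusted p = 9.45e-07).

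Complement genes rose in 10 of 16. C1qa, a chain of the initiator C1q, had 987 and 881 in the explants, against 165 and 159 in intact retina (5.75-fold higher). Serping1, the inhibitor of C1, had 2038 and 2367 in the explants, against 244 and 187 in intact retina (10.3-fold higher). The gene that fell was Cd59a, which protects cells from the terminal complex, at -1.03 (SE 0.08). Among NF-kappaB and C/EBP regulators 18 of 24 rose and 2 fell. Cebpd, a factor of acute-phase genes, had 2556 and 2636 in the explants, against 275 and 278 in intact retina (9.40-fold higher, log2 change 3.23, SE 0.08, adjusted p = 1.32e-09). Bcl3, a partner of NF-kappaB, had 539 and 566 in the explants, against 39.2 and 48.7 in intact retina (12.6-fold higher). Tnfaip3, the enzyme A20 that shuts NF-kappaB off, had 401 and 421 in the explants, against 2647 and 2919.6 in intact retina (6.77-fold lower, log2 change -2.76, SE 0.11, adjusted p = 3.22e-08), the opposite direction to most of its list. Microglial markers rose on the same arrays as the chemokine and complement genes, and their part in these changes was not tested.

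Genes known from cut axons rose in 16 of 21, with a median of 1.17. Sprr1a, a protein of growing axons, had 1745 and 1698 in the explants, against 40.5 and 29.1 in intact retina (50.1-fold higher, log2 change 5.65, SE 0.13, adjusted p = 1.32e-09). Gal, the neuropeptide galanin, had 1722 and 1503 in the explants, against 97.95 and 88.8 in intact retina (17.3-fold higher, log2 change 4.11, SE 0.09, adjusted p = 7.90e-10). Ecel1, a peptidase of injured neurons, had 887 and 841 in the explants, against 90.3 and 82.3 in intact retina (10.02-fold higher). The transcription factors of the program rose as well. Atf3 had 1428 and 1486 in the explants, against 161 and 130.4 in intact retina (10.1-fold higher). Jun had 1905 and 2172 in the explants, against 539.8 and 567 in intact retina (3.68-fold higher). Gap43 had 1359 on both arrays in the explants, against 384 and 386 in intact retina (3.53-fold higher, log2 change 1.82, SE 0.07, adjusted p = 2.10e-08).

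Immediate early genes rose in 14 of 26 and fell in 0 (limma; 1 lower at an unadjusted p under 0.05). Egr2 had 285 and 259.9 in the explants, against 11.4 and 10.1 in intact retina (25.4-fold higher). Junb had 175 and 188 in the explants, against 54.2 and 58.9 in intact retina (3.22-fold higher). Fosl1 had 123 and 124 in the explants, against 46.8 and 50.1 in intact retina (2.55-fold higher). Fos, which answers handling of tissue quickly, had 1678 and 1522 in the explants, against 985 and 1489 in intact retina and was not called, and its intact arrays were apart. Of 16 ERK feedback genes 7 rose, 4 without intact replicate 1 or either explant array, and 4 fell, among them Dusp4, a nuclear phosphatase of ERK, at -1.63 (SE 0.15).

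Growth factors changed gene by gene. Edn2, the endothelin of injured photoreceptors, had 2556 and 2576 in the explants, against 348 and 280.4 in intact retina (8.21-fold higher, log2 change 3.04, SE 0.14, adjusted p = 8.39e-08). Ednrb, an endothelin receptor of Müller glia, had 209 and 218 in the explants, against 68.9 and 67.7 in intact retina (3.13-fold higher, log2 change 1.65, SE 0.09, adjusted p = 2.19e-07). Ligand and receptor were thus higher together, while Edn1 and Edn3 changed by -0.17 and -0.25 and were not called. Pgf, a relative of VEGF, had 248 and 257 in the explants, against 52.8 and 58.4 in intact retina (4.55-fold higher). Vegfa changed by -0.71 (SE 0.10) and Fgf1 by -1.25 (SE 0.13). Fgf2, a survival factor of photoreceptors, had 26.9 and 38.9 in the explants, against 15.03 and 13.3 in intact retina (log2 change 1.19, SE 0.16, adjusted p = 1.78e-04). Fst, the activin-binding follistatin, had 143 and 138 in the explants, against 23.7 and 22.5 in intact retina (6.07-fold higher), and Inhbb, an activin chain, had 276 and 258 in the explants, against 71.2 and 61.7 in intact retina (4.02-fold higher), although another Inhbb probe set changed by -0.04 (adjusted p = 0.85). Tgfbi, a matrix target of TGF-beta, had 547 and 406 in the explants, against 37 and 41.8 in intact retina (11.98-fold higher). Of 31 genes of the canonical Wnt pathway, which the GSK3 inhibitor of the other arrays stimulates, 6 were higher (19.4%) and 2 lower (6.45%). Among all genes these shares were 19.3% and 16.9%. The median of the Wnt list was 0.04. Under centring on the median level of housekeeping genes 3 were higher and 22 lower, with a median of -0.38. Axin2, a general target of the pathway, had 198 and 199.6 in the explants, against 189.9 and 225 in intact retina and was not called. Ndp, the Norrin ligand of Müller glia, had 342 and 349 in the explants, against 109 and 119 in intact retina (3.04-fold higher).

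Ccnd1, the cyclin D1 of early G1, had 856 and 1036 in the explants, against 419 and 329.9 in intact retina (2.53-fold higher, log2 change 1.34, SE 0.13, adjusted p = 2.03e-05). Ccnd3, cyclin D3, had 795 and 925 in the explants, against 279.9 and 320.3 in intact retina (2.86-fold higher, log2 change 1.52, SE 0.10, adjusted p = 1.11e-06). Cdkn1a, the cell cycle inhibitor p21, had 616 and 575 in the explants, against 99.5 and 130.1 in intact retina (5.23-fold higher, log2 change 2.39, SE 0.15, adjusted p = 6.92e-07). The change of the inhibitor was above that of either cyclin. Of 44 mitosis genes 21 rose and 4 fell. The largest fall of the list, -2.67, was larger than its largest rise, 2.28. The summed intensity of the mitosis genes was 4646 and 4621 in the explants, against 5736 and 6002 in intact retina, so the sum fell while more genes rose. Of 46 genes of DNA replication 12 rose, 7 without intact replicate 2, and 3 fell. The medians of 0.27 and 0.10 became -0.15 and -0.32 under centring on the median level of housekeeping genes. Mki67, the antigen Ki67 of cycling cells, had 116 and 98.3 in the explants, against 23.6 and 21.3 in intact retina (4.78-fold higher, log2 change 2.26, SE 0.14, adjusted p = 6.72e-07). Birc5, survivin, had 66.7 and 62.98 in the explants, against 14.6 and 12.1 in intact retina (4.87-fold higher). Rrm2, a subunit of ribonucleotide reductase, had 99.8 and 94.2 in the explants, against 12.2 and 15.3 in intact retina (7.08-fold higher), while another of its probe sets changed by 0.32 and was not called (adjusted p = 0.157). At the probe sets given, both explant arrays of these 3 genes were above both intact arrays. Mcm6, a subunit of the replicative helicase, had 143 and 139.8 in the explants, against 72.1 and 47.1 in intact retina (log2 change 1.28, SE 0.17, adjusted p = 1.86e-04), whereas its partner Mcm2 had 358 and 339 in the explants, against 344 and 305 in intact retina and was not called. Which cells held these transcripts was not measured on the arrays. The paper stained explants for protein and, after 4 days of culture, found cyclin D1 in nuclei of Müller glia of this strain. Its cells with both Ki67 and cyclin D1 in this strain carried a microglial marker. Müller glia with Ki67 were reported only in explants of the other strain.

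Of 29 genes of the integrated stress response, which ATF4 and CHOP carry out, 23 rose and 2 fell, with a median of 0.72. Nupr1, a stress-induced nuclear protein, had 7799 and 6829.5 in the explants, against 209 and 174 in intact retina (38.3-fold higher). Chac1, which degrades glutathione, had 205 and 215 in the explants, against 50.4 and 45.2 in intact retina (4.40-fold higher). Asns, which makes asparagine, had 949.5 and 995 in the explants, against 394 and 398 in intact retina (2.45-fold higher). Ddit3, the gene of CHOP, was 2.05-fold higher (log2 change 1.04, SE 0.10, adjusted p = 1.94e-05), while Ddit4, a stress inhibitor of mTOR, changed by -1.15 (SE 0.08). Chaperone genes of the endoplasmic reticulum and of heat shock had a median of 0.08 that became -0.34 under centring on the median level of housekeeping genes. Of 25 such genes 10 rose, 5 without explant replicate 1 and 6 without intact replicate 1, and 3 fell, among them the near-identical Hspa1a and Hspa1b at -1.28 and -1.08. Of 31 genes of p53 and cell death 18 rose and 1 fell, with a median of 0.36 that became -0.058 under that centring. Pmaip1, the death protein NOXA, had 91.6 and 95.98 in the explants, against 13.01 and 13.2 in intact retina (7.16-fold higher). Mdm2, a classic p53 target, had 658 and 693 in the explants, against 655 and 627 in intact retina and was not called, and another of its probe sets was lower, at -0.50. Bcl2, which blocks apoptosis, was the gene that fell, at -0.84 (SE 0.10).

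The metallothionein genes Mt1 and Mt2 rose. They lie near each other on chromosome 8, and their 250 upstream bases are shown with matches to TGCGCNC or TGCACNC, the core of the metal response element, in capitals on either strand, from chr8:94178839-94179088 (+ strand) for Mt1 and chr8:94172368-94172617 (+ strand) for Mt2.
Mt1: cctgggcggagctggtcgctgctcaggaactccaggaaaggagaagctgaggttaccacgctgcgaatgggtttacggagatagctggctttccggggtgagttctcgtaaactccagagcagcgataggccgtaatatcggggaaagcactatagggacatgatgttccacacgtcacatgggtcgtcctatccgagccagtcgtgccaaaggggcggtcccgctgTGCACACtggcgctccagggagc
Mt2: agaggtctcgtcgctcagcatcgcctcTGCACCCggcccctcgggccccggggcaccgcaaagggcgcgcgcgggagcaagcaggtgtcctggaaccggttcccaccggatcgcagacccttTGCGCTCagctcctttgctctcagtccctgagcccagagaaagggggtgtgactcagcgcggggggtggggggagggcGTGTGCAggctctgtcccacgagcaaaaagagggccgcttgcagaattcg
Mt2 held 3 matches and Mt1 held 1, and 21.3% of all promoters held at least 1. Of 22 metallothionein and antioxidant genes with a promoter in the table, 6 (27.3%) held the core, about the 27.2% among genes of the comparison. Mt1 had 13079 and 13836 in the explants, against 2328 and 1667 in intact retina (6.83-fold higher, log2 change 2.77, SE 0.14, adjusted p = 1.56e-07). Mt2 had 13456 and 13879 in the explants, against 2238 and 1581 in intact retina (7.26-fold higher, log2 change 2.86, SE 0.13, adjusted p = 8.72e-08). The neighbours thus moved by about the same amount. Hmox1, the heme oxygenase, had 561 and 609 in the explants, against 43.02 and 26.8 in intact retina (17.2-fold higher, log2 change 4.11, SE 0.20, adjusted p = 9.16e-08). Nqo1, a target of the antioxidant factor NRF2, had 69.9 and 87.9 in the explants, against 106 and 74.5 in intact retina and was not called. Gpx3, a secreted glutathione peroxidase, changed by -1.53 (SE 0.31).

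Genes of glycolysis and hypoxia were lower in 23 of 31 and higher in 0 (limma; 1 higher at an unadjusted p under 0.05), with a median of -0.71. Hk2, the hexokinase of photoreceptors, had 980.5 and 1105 in the explants, against 4676 and 5148 in intact retina (4.71-fold lower, log2 change -2.24, SE 0.10, adjusted p = 7.63e-08). Hk1, the hexokinase of most neurons, had 4937 and 5215 in the explants, against 5088 and 5232 in intact retina and was not called. Pkm, pyruvate kinase, was 2.13-fold lower (log2 change -1.09, SE 0.07, adjusted p = 9.17e-07), and Slc16a1, a lactate transporter, 2.36-fold lower (log2 change -1.24, SE 0.07, adjusted p = 3.87e-07). Bnip3, a target of hypoxia-inducible factor, changed by -1.20 (SE 0.09). Of 38 genes of the respiratory chain 6 were higher (15.8%) and 5 lower (13.2%), against 19.3% and 16.9% of all genes. Their median was -0.02, and fewer were lower without intact replicate 1 or either explant array.

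Cholesterol genes were lower in 19 of 25 and higher in 3, with a median of -0.48. Hmgcs1, an early enzyme of the pathway, had 1377 and 1506 in the explants, against 2649 and 2558 in intact retina (1.81-fold lower). Fdps, the farnesyl diphosphate synthase, had 575 and 630.2 in the explants, against 1306 and 1179 in intact retina (2.06-fold lower). Abca1, which exports cholesterol, had 1901 and 1706 in the explants, against 752 and 783 in intact retina (2.35-fold higher, log2 change 1.23, SE 0.14, adjusted p = 5.07e-05). The exporter was thus higher while enzymes of synthesis were lower, and Ebp and Pmvk, both of synthesis, were exceptions at 0.89 (SE 0.09) and 0.69 (SE 0.08).

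Of 45 matrix genes 21 rose and 3 fell, with a median of 0.27 that became -0.15 under centring on the median level of housekeeping genes. Mmp12, the macrophage elastase, had 176 and 173 in the explants, against 10.9 and 7.64 in intact retina (19.1-fold higher, log2 change 4.26, SE 0.17, adjusted p = 2.16e-08). Fn1, fibronectin, had 1182 and 1009 in the explants, against 252 and 248 in intact retina (4.37-fold higher). Col1a1, the collagen of fibroblasts, had 30.5 and 30.1 in the explants, against 33.1 and 34.2 in intact retina and was not called. Col8a1, a short-chain collagen, changed by -2.35 (SE 0.20). Of 18 S100 proteins and annexins 14 rose and 0 fell (limma; 1 lower at an unadjusted p under 0.05). S100a6 had 4456 and 5148 in the explants, against 154 and 142 in intact retina (32.4-fold higher, log2 change 5.02, SE 0.23, adjusted p = 6.81e-08). Anxa2 had 794 and 730.1 in the explants, against 151 and 156 in intact retina (4.95-fold higher) at its brightest probe set, and 2 dimmer ones were not called. Msn, the membrane linker moesin, had 1067 and 1105 in the explants, against 257 and 223 in intact retina (4.54-fold higher). Rhoc, a GTPase of cell motility, had 1509 and 1531 in the explants, against 359 and 301 in intact retina (4.62-fold higher).

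Circadian genes were lower in 9 of 19, among them Per2 at -0.95 (SE 0.11) and Arntl at -0.54 (SE 0.09), while Per1 had 527 and 566 in the explants, against 503 and 568 in intact retina and was not called. Ribosomal protein genes rose in 15 of 21 by a median of 0.28, which became -0.14 under centring on the median level of housekeeping genes. The housekeeping genes were no fixed reference, with 4 of 11 higher and 4 lower. Among them B2m, the class I light chain, rose by 2.79 (SE 0.16) and Pgk1, a glycolytic enzyme, changed by -0.62 (SE 0.08).

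**Figure D4:**
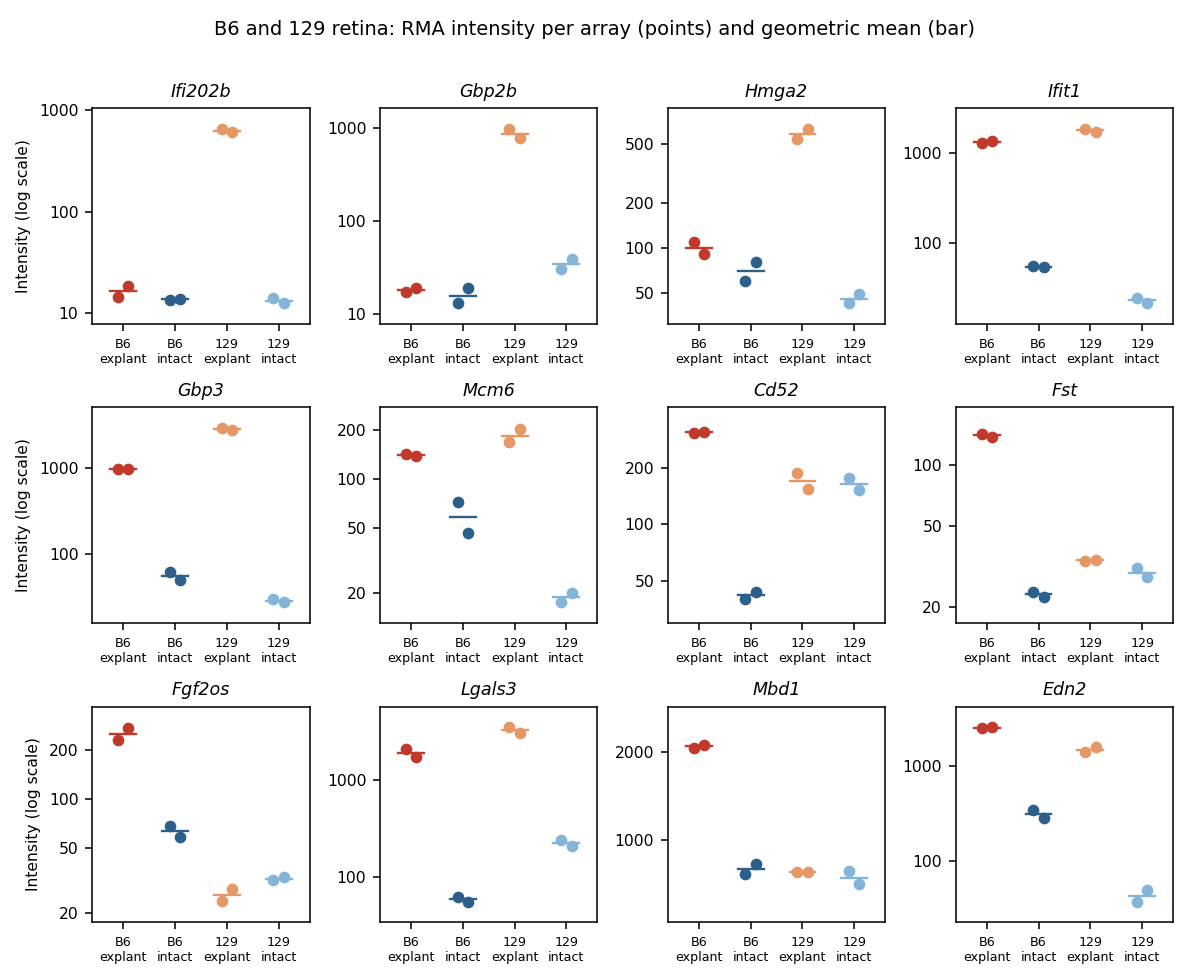
Intensity of 12 genes (vertical axis, log scale) on the arrays of, from left to right, B6 explants, intact B6 retina, 129 explants and intact 129 retina, with each point an array. Ifi202b, Gbp2b and Hmga2 were not called between B6 explants and intact B6 retina but were higher in 129 explants, and Cd52, Fst and Fgf2os had a larger change in B6 than in 129.

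The same comparison in 129 retina shares no array with that in B6, and there 6640 probe sets were higher and 7144 lower. Between the intact 129 arrays 85 probe sets differed by more than 2-fold, and between the 129 explant arrays 5. A difference between the strains in the change, B6 minus 129, was called at 1161 probe sets, and at 352 to 1138 when any 1 of the 8 arrays of both comparisons was left out, fewest without 129 explant replicate 2. With 1 probe set a gene it was above 0 at 241 genes (1.32%) and below 0 at 317 (1.74%). Over all probe sets the split was 465 above and 696 below 0, and it turned to 765 and 316 when the arrays were centred on the median change of housekeeping genes. Of 40 interferon-inducible genes the change was lower in B6 than in 129 in 21 and higher in 1, or in 6 under centring on the median level of housekeeping genes. Ifit1 changed by 4.61 in B6 and 6.30 in 129 (difference -1.69, SE 0.15, adjusted p = 3.89e-04), with 1845 and 1723 in the 129 explants, against 24.3 and 21.02 in intact 129 retina. Gbp3 changed by 4.11 in B6 and 6.59 in 129 (difference -2.48, SE 0.15, adjusted p = 2.66e-05), with 2876 and 2732 in the 129 explants, against 30.4 and 27.7 in intact 129 retina. For both genes the B6 explants ended lower and intact B6 retina started higher than 129. Of 56 microglial genes the change was higher in B6 in 16 and lower in 1, and the 16 were 41 under centring on the median level of housekeeping genes, 21 with 16 added before log2, 5 without 129 explant replicate 2 and 7 to 13 without any other of the 8 arrays. Among them was Lgals3, which changed by 5.03 in B6 and 3.88 in 129 (difference 1.15, SE 0.17, adjusted p = 0.00756). Lgals3 had 3500.3 and 3066 in the 129 explants, against 239 and 209 in intact 129 retina, so its level stayed below that of 129 in the B6 explants, and the larger B6 change went with a lower level in intact B6 retina.

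Several large differences were in genes called in 1 strain. Ifi202b, a DNA sensor of the p200 family, had 14.6 and 18.5 in the B6 explants, against 13.5 and 13.98 in intact B6 retina, and 653 and 613 in the 129 explants, against 14.1 and 12.6 in intact 129 retina (difference -5.31, SE 0.19, adjusted p = 6.98e-07). Gbp2b, a guanylate-binding GTPase, had 17.1 and 18.9 in the B6 explants, against 12.97 and 18.8 in intact B6 retina, and 974 and 780.2 in the 129 explants, against 30.03 and 39.1 in intact 129 retina (difference -4.47, SE 0.27, adjusted p = 2.66e-05). Hmga2, a chromatin protein of embryonic cells, had 110.3 and 91.6 in the B6 explants, against 60.04 and 80.9 in intact B6 retina, and 543 and 627 in the 129 explants, against 42.5 and 49.1 in intact 129 retina (difference -3.15, SE 0.30, adjusted p = 6.01e-04). For these 3 the B6 change did not pass the test (adjusted p = 0.181, 0.465 and 0.0837) and the 129 change did. Cd52, a small surface protein of leukocytes, had 308 and 314 in the B6 explants, against 39.9 and 43.5 in intact B6 retina, and 189.5 and 155 in the 129 explants, against 177 and 154 in intact 129 retina (difference 2.84, SE 0.19, adjusted p = 5.83e-05). Intact 129 retina had more Cd52 signal than intact B6 retina, so the strains differed before culture as well. Fst had 143 and 138 in the B6 explants, against 23.7 and 22.5 in intact B6 retina, and 33.8 and 34.2 in the 129 explants, against 31.1 and 28.02 in intact 129 retina (difference 2.40, SE 0.23, adjusted p = 6.21e-04). Fgf2os, the antisense transcript of Fgf2, changed by 1.98 in B6 and -0.34 in 129 (difference 2.31, SE 0.18, adjusted p = 1.67e-04).

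Cell cycle genes also differed. The change was lower in B6 than in 129 at 7 of 46 genes of DNA replication and 4 of 44 of mitosis, and higher at 4 and 6 under centring on the median level of housekeeping genes. Without 129 explant replicate 2 these counts were 2 and 2, and without B6 explant replicate 2 they were 2 and 1. Ccnd1 changed by 1.34 in B6 and 2.73 in 129 (difference -1.39, SE 0.19, adjusted p = 0.00443). Mcm6 changed by 1.28 in B6 and 3.30 in 129 (difference -2.02, SE 0.24, adjusted p = 0.0023), with 168 and 205 in the 129 explants, against 17.6 and 20.2 in intact 129 retina. Intact B6 retina had more Mcm6 signal than intact 129 retina, and the explants of the strains were closer to each other. The smaller B6 change of Mcm6 thus went with a higher level before culture. Edn2 rose in both strains, by 3.04 in B6 and 5.14 in 129 (difference -2.10, SE 0.20, adjusted p = 6.01e-04), with 1405 and 1593 in the 129 explants, against 36.9 and 48.8 in intact 129 retina. Edn2 was thus brighter in B6 than in 129 in explants and in intact retina, and rose less from the higher start. Mbd1, a reader of methylated DNA, had 2058 and 2117 in the B6 explants, against 763 and 823 in intact B6 retina, and 775 and 774 in the 129 explants, against 783 and 703 in intact 129 retina (difference 1.34, SE 0.11, adjusted p = 2.87e-04). Among rod genes the difference was called at 2 of 31, at 1 to 3 without any 1 of these arrays and at 21 under centring on the median level of housekeeping genes. The low count does not show that rods of the strains changed alike.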

How the data were processed

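Per the labels, retinas of C57BL/6NCrSlc and 129X1/SvJJmsSlc males aged 10 weeks were taken intact or after 3 days as explants, with or without CHIR99021, 2 arrays a group. The authors hybridised RNA to Mouse Genome 430 2.0 arrays and deposited intensities summarized with RMA. The deposited intensity values are on a linear scale and were transformed to log2. Of 45101 probe sets, 64 controls were left out, and 45037 were fitted with limma 3.58.1 in R 4.3.3 (lmFit, eBayes, 1 mean for each of 6 groups), with Benjamini-Hochberg adjustment. One gene symbol was paired with 34945 probe sets, several with 932 and none with 9160, which gave 18193 genes. The 2 arrays of a group limit the precision, and prior and residual spread came from all 12.

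The 56 lists held 1355 symbols, of which 1236 were measured. The comparison and the lists were chosen with earlier results of these data known. Genes were named if they had 1 of the 15 largest rises or falls, 1 of the 8 largest called changes of a list, a place among the first 6 of a list, a mention in the study's text or 1 of the 12 largest strain differences. Bcl2, Cd59a, Cd74, Clca3a2, Ddit4, Gucy2e, H2-Ab1, Oas2, Siglech and Tbx2 were named after their values were seen. Promoters came from RefSeq (GRCm38.p6), and they were also scanned for motifs not shown here (NF-kappaB, C/EBP-ATF, sterol response, AP-1, E2F, STAT and E-box). The fit was tested on simulated data. Alternatives were a replicate block, fewer arrays, cyclic loess, 2 centrings on housekeeping genes (1 of them added after seeing the data), a filter on dim probe sets, another eBayes step, 16 added before log2, leaving out each array and, for list medians, the median over all probe sets of a gene.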

Additional observations from a re-analysis of the deposited data

Results flagged for a closer look

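The change in culture differed between the strains at 1161 probe sets, by limma's test of the difference (adjusted p under 0.05), and at 48 of the genes named here. The values below are the B6 change minus the 129 change on the log2 scale, and 19 of the 48 lost the call under 1 or more alternatives. These were Abca1, Aif1, Bcl3, C1qa, Ccnd3, Clec7a, Dct, Gal, Gpx3, Gucy2e, Igfbp3, Inhbb, Lyz2, Mcm2, Psmb8, Rrm2, Socs3, Stmn2 and Timp1, of which Socs3 lost it in 14 alternatives, Gpx3 and Igfbp3 in 13, Dct and Gal in 12, Stmn2 in 11 and C1qa in 10.

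In 26 genes the difference was below 0. Among genes of interferon and antigen presentation it was -5.31 for Ifi202b, -4.47 for Gbp2b, -2.48 for Gbp3, -1.69 for Ifit1, -1.64 for Iigp1, -1.57 for Rtp4, -1.55 for Usp18, -1.11 for Rsad2, -1.05 for Nlrc5, -0.99 for Irf1 and -0.98 for Psmb8. Among genes of the cell cycle and chromatin it was -3.15 for Hmga2, -2.02 for Mcm6, -1.39 for Ccnd1, -1.36 for Rrm2 and -0.97 for Mcm2. Among signalling and stress genes it was -2.10 for Edn2, -1.53 for Il6, -1.45 for Fosl1, -1.42 for Cebpd, -1.15 for Ndp, -0.96 for Osmr and -0.72 for Inhbb. It was -2.01 for Gpx3, -1.79 for Cltrn and -1.74 for Dct. The arrays of intact retina were apart for Dct and Gpx3. Dct had 36.7 and 36.04 in the B6 explants, against 546 and 332 in intact B6 retina, and 38.7 and 43.1 in the 129 explants, against 107 and 190.0 in intact 129 retina. Gpx3 had 299 and 275 in the B6 explants, against 1196 and 576 in intact B6 retina, and 352 and 318 in the 129 explants, against 177 and 327 in intact 129 retina. The summed intensity of 24 markers of pigmented epithelium and melanocytes on the intact 129 arrays was 15162 and 24635, and its part in these differences was not tested. For Cebpd the explants were close, at 2556 and 2636 in B6 and 2426 and 2338 in 129. Intact retina had 275 and 278 in B6 and 88.3 and 101 in 129, so the smaller B6 change of Cebpd went with a higher level before culture.

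In 22 genes the difference was above 0. Among genes of microglia and inflammation it was 2.84 for Cd52, 1.59 for Timp1, 1.37 for Lyz2, 1.15 for Lgals3, 1.11 for Clec7a, 1.03 for Serpina3n, 0.99 for Bcl3, 0.92 for Aif1, 0.53 for C1qa and 0.41 for Socs3. Among growth factors, matrix and neuronal genes it was 2.40 for Fst, 2.31 for Fgf2os, 1.03 for Pgf, 0.94 for Igfbp3, 0.84 for Fn1, 0.62 for Stmn2 and 0.56 for Gal. It was 1.34 for Mbd1, 1.14 for Abca1, 1.07 for Pmaip1, 1.04 for Gucy2e and 0.85 for Ccnd3.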

How the results depend on the processing

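The scaling moved the counts most. Centred on the median level of housekeeping genes, the arrays gave 36458 calls in B6 (2126 higher, 34332 lower), 3333 of them at least 2-fold, 42761 calls in 129 (1257 higher, 41504 lower) and 16248 strain differences (15931 above and 317 below 0). That centring turned the sign of 17 of 56 list medians, among them resting Müller glia to -0.049, the endothelin pathway to -0.34, G1 cyclins and inhibitors to -0.13, p53 targets and cell death to -0.058, metallothioneins and antioxidant genes to -0.052, ribosomal proteins to -0.14, the TGF-beta family to -0.14, EGF and FGF to -0.36, ERK feedback to -0.36, neurotrophic factors to -0.37, methyl-DNA factors to -0.37 and the Wnt pathway to -0.38, and it turned the changes of Mcm2 to -0.31, Mdm2 to -0.34, Pax6 to -0.36, Per1 to -0.39 and Tmem119 to -0.39. The strain differences also numbered 1856 among probe sets above the median level, 2440 with a trended and robust eBayes step and 1938 with 16 added before log2. With the median over all probe sets of a gene in place of the brightest, 28 of 56 list medians moved by more than the spread between replicates, and 1 turned its sign, ERK feedback (0.06 to -0.04). The other alternatives gave 11500 to 15027 B6 calls. Without any 1 array the calls ranged over 10538 to 14106 in B6, 1989 to 2066 at least 2-fold, 9848 to 14153 in 129 and 352 to 1138 for the strain difference, which was 674 without B6 intact replicate 1, 568 and 463 without B6 explant replicates 1 and 2, 589 and 644 without 129 intact replicates 1 and 2, and 490 and 352 without 129 explant replicates 1 and 2. With the replicate number as a block the calls were 13771 in B6 and 967 for the strain difference. Deviations of same-numbered arrays correlated by -0.11 to 0.04, so the numbers were not taken to pair the arrays.

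With 2 arrays a group, each change rests on 4 arrays and a spread shared by 6 groups. Dim probe sets had fewer calls than bright ones, so a missing call at a low level shows no absence of change. Culture, vehicle and EdU came together, and whether the arrays of a group came from separate animals is not stated. RMA gives all arrays the same distribution, so a change of total RNA would not be seen.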
